A study of Mus musculus with 48 samples.

Results

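The AP-1 immediate early transcription factors are taken here as 10 genes: Fos, Fosb, Fosl1, Fosl2, Jun, Junb, Jund, Atf3, Maff and Egr1. They were picked by symbol from the 51789 gene IDs of a raw count table, and each symbol matched 1 row. They were followed in 48 libraries of mouse macrophages, 3 in each of 16 groups. The groups are 8 macrophage populations, each exposed for 4 h to 10 µM AP-3-84, a compound known here only by that code name, or to the DMSO vehicle.

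Ascites macrophages were F4/80+ cells, captured with magnetic beads from the peritoneal wash of mice with ID8 ovarian tumours, 45 days after the tumour cells were given; their genotype is labelled B6(Cg)-Tyrc-2J/J on a C57BL/6 strain. Thioglycollate macrophages, called thio below, were F4/80+ cells of wild-type C57BL/6 mice, captured in the same way 4 days after 1 mL of 3% thioglycollate was put into the peritoneum. Bone marrow-derived macrophages were grown from marrow hematopoietic stem cells of wild-type (WT) or p53 knockout (KO) C57BL/6 mice for 6 days in M-CSF at 10 ng/mL, which gave the M0 state. M1 cells had a further 24 h in LPS at 100 ng/mL and IFN-γ at 50 ng/mL, and M2 cells a further 24 h in IL-4 and IL-13, each at 10 ng/mL. The genotype field of the labels reads wild-type for all bone marrow-derived samples, so the knockout groups rest on their titles and descriptions. Neither the age of the mice nor whether replicates came from separate mice or cultures is given, so p-values measure the spread between these samples, which may be technical.

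Dimers of a FOS-type and a JUN-type protein form AP-1, a basic leucine zipper (bZIP) factor that binds short palindromic sites in enhancers and promoters. MAP kinases switch several of these genes on, Fos and Egr1 among them, within minutes of a stimulus, from stored factors and without new protein. In macrophages AP-1 works beside NF-κB at cytokine and protease genes. ATF3 and MAFF are bZIP proteins that can limit such programmes, and EGR1 is a zinc finger factor induced through the same serum response elements as Fos.

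Depth was 15532373 to 19417581 counts per library in the peritoneal samples and 3081707 to 4645148 in the bone marrow-derived ones, and the 2 origins were fitted apart and not compared with each other. Values are CPM, counts scaled to a common library size after TMM normalisation. Log2 fold changes are given ± their standard error, and a difference is called when its adjusted p from edgeR's quasi-likelihood test is under 0.05. All 7 macrophage markers looked for were detected in every group. Cdkn1a, a p53 target, stood at 555 to 1119 CPM in the WT and 34.1 to 292 CPM in the KO bone marrow-derived libraries, while Trp53 itself overlapped, at 4.79 to 13.2 and 2.70 to 9.11 CPM; the deleted part of the gene is not stated, so 3′ tags may lie outside it. The M1 markers were low after LPS and IFN-γ in WT cells: the 5 genes summed to 62.6 to 75.8 CPM in WT M1 vehicle, 28.0 to 61.9 in WT M0 and 129 to 216 in WT M2. By the distance between libraries, AP-3-84 replicate 1 of the ascites group stood apart from its group, and the 4 ascites members called below were also called without it.

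Jun, Atf3 and Maff are shown with the 250 bases before a transcription start. They were picked because a motif searched for was found in them, so a motif in each follows from the choice. RefSeq promoters on GRCm38.p6 were found for 8 of the 10 genes; Egr1 and Fosl1 are not among them. The genes themselves span chr4:95049034-95052222 (Jun), chr1:191170296-191218039 (Atf3) and chr15:79346621-79359076 (Maff) on GRCm38. The windows searched ran from 250 bases before to 50 after each start, on both strands. Capitals mark a motif: TGACATCA at -45 to -38 from the start of Jun (chr4:95052223-95052472, minus strand), TGATGNAAN on the opposite strand at -111 to -103 of Atf3 (chr1:191183334-191183583, minus strand), and TGACGTCA at -29 to -22 of 1 of the 3 Maff starts (chr15:79347270-79347519, plus strand).
Jun: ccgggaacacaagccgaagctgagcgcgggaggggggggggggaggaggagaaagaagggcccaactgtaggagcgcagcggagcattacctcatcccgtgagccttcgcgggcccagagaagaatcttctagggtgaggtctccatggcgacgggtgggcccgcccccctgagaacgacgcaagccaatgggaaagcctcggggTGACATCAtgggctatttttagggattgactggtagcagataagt
Atf3: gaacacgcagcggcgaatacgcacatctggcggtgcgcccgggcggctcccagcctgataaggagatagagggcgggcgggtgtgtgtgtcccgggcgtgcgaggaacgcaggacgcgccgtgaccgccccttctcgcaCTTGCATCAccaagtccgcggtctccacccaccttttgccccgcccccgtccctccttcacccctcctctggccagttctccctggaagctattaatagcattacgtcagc
Maff: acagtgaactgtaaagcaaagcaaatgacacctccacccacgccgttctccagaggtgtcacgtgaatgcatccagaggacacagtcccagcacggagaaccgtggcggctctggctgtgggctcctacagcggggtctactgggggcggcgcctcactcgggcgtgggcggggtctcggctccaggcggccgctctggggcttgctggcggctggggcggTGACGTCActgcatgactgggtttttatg
TGACGTCA is the cyclic AMP response element, and it was in 1 of the 8 members (1 of their 10 windows). The share was 1.79% of 32851 RefSeq promoter windows of the same length. TGACATCA differs from TGACGTCA by 1 letter and was searched for after the sequences were seen. It was in 2 members, Jun and another Maff start that is not shown (2 of the 10 windows), and in 3.62% of all windows. TGATGNAAN, the composite site of ATF4 and C/EBP proteins, was in 1 member (1 of the 10 windows) and in 3.95% of all windows. The AP-1 site TGANTCA, in 7.81% of all windows, and the CArG box, in 1.63%, were in 0 of the 10 windows of the 8 members. The Jund window, chr8:70697489-70697788, is counted among the 10 but ends before the annotated gene, chr8:70698949-70700616. Bases further than 250 before a start were not searched, so whether these genes lack such sites cannot be read from the counts. These matches describe letters, not binding.

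AP-3-84 raised 4 of the 10 members in ascites macrophages and 4 of 10 in thio macrophages, and all 10 had a log2 fold change above 0 in both. Jun, Atf3 and Egr1 were called in both, Fosb in ascites macrophages and Fosl1 in thio macrophages. The background was 303 of 16955 genes tested (1.79%) called in ascites macrophages, 286 of them (1.69%) higher, and 733 (4.32%) in thio macrophages, 425 of them (2.51%) higher. The members' median log2 fold change was 0.71 in ascites and 0.44 in thio macrophages, against -0.0048 and 0.025 over all genes tested. The members were chosen with earlier results of these data known, so these counts and medians are not a test of the set. In the 6 bone marrow-derived populations, where 9 members could be tested, the 1 call was a fall of Maff in WT M2 cells. Counted without a test, all 3 treated libraries lay above all 3 vehicle libraries for 7 members in ascites macrophages (9.86% of all genes) and 7 in thio macrophages (12.7%). The same held for 4 members in WT M0 (9.08%), 5 in WT M1 (9.6%), 2 in WT M2 (7.98%), 2 in KO M0 (15.4%), 0 in KO M1 (2.79%) and 5 in KO M2 (6%). All treated libraries lay below for 2 members in WT M2 (8.78% of genes) and 1 in KO M0 (16.7%).

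**Figure D1:**
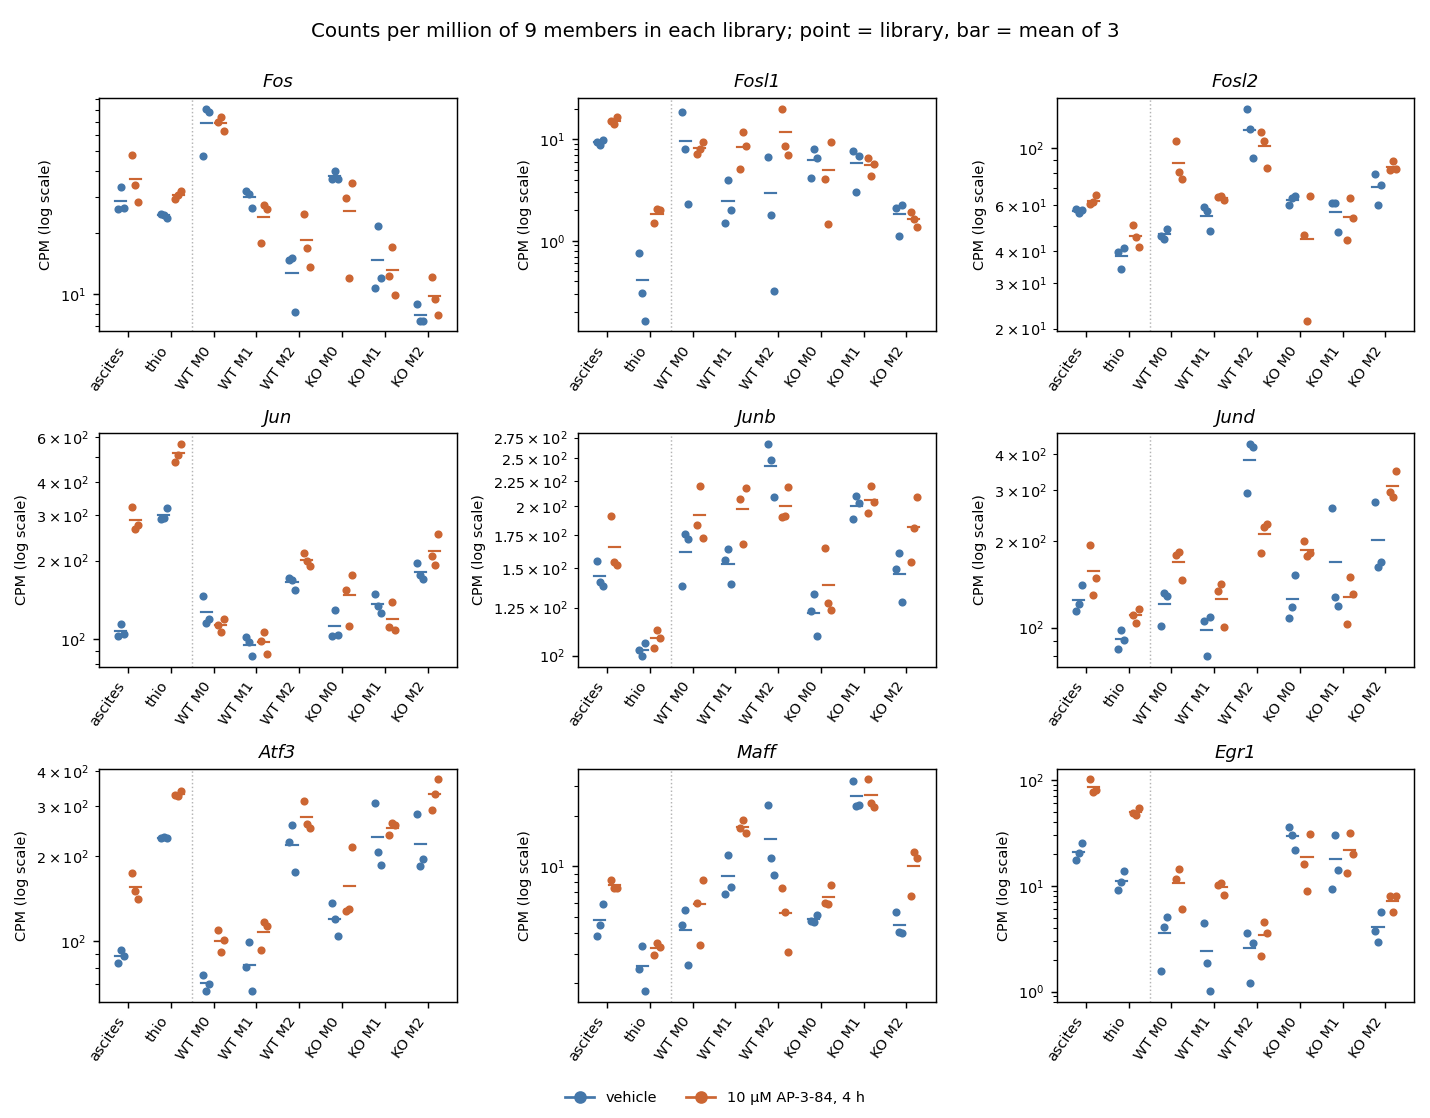
CPM (log scale, a separate range for each gene) of 9 members in all 48 libraries, by population on the x axis; each point is a library, each bar the mean of 3, blue for vehicle and orange for AP-3-84. Jun, Atf3 and Egr1 separate by treatment in ascites and thio macrophages, and Fosb is left out because some libraries hold 0 counts of it.

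Among the FOS-type members, Fosb, a FOS paralog that is scarce in resting cells, was the one called in ascites macrophages. Its CPM was 0.419, 0.246 and 0.380 in the vehicle libraries and 2.71, 2.55 and 3.57 with AP-3-84, from 5 to 7 counts against 43 to 56. All treated libraries were above all vehicle libraries, by log2 3.06 ± 0.679 (edgeR adjusted p = 0.0231). The call was lost when any 1 vehicle library, or treated replicate 2 or 3, was left out (edgeR adjusted p 0.0601 to 0.151, log2 fold change 2.86 to 3.21). In thio macrophages Fosb held 6, 1 and 0 counts with vehicle and 9, 12 and 5 with AP-3-84, and its log2 fold change of 1.96 ± 0.803 was not called (edgeR adjusted p = 0.228). Without vehicle replicate 1 it was 4.00 and called (edgeR adjusted p = 0.0413), and without vehicle replicate 3 it was 1.35 (edgeR adjusted p = 0.484). The bone marrow-derived libraries held 0 to 10 Fosb counts each and Fosb was not tested there.

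Fosl1 encodes FRA-1, a FOS-type protein without the transactivation domain of FOS. In thio macrophages its CPM was 0.766, 0.304 and 0.163 with vehicle and 1.48, 2.07 and 2.01 with AP-3-84. The groups did not overlap, and the log2 fold change was 2.19 ± 0.359 (edgeR adjusted p = 0.0014). Without vehicle replicate 1, the highest of the 3, it was 2.97 (edgeR adjusted p = 0.000195). In ascites macrophages Fosl1 was 9.35, 8.82 and 9.87 CPM with vehicle and 15.1, 14.3 and 16.5 with AP-3-84. These groups did not overlap either, but the log2 fold change of 0.71 ± 0.225 was not called (edgeR adjusted p = 0.173); DESeq2 called it (DESeq2 adjusted p = 0.0236). The difference between the 2 responses, -1.48 ± 0.428, was not called (edgeR adjusted p = 0.377), and without thio vehicle replicate 1 it was -2.26 (edgeR adjusted p = 0.0668). With no filter on low counts it was called at -1.48 (edgeR adjusted p = 0.0488).

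In WT M2 cells Fosl1 varied widely, from 0.317 to 6.68 CPM with vehicle and 6.95 to 20.1 with AP-3-84. The groups were apart by a narrow margin and the log2 fold change was 1.96 ± 0.656 (edgeR adjusted p = 0.17). Leaving out vehicle replicate 1, the highest of its group, gave 3.41 and a call (edgeR adjusted p = 0.0342), and leaving out AP-3-84 replicate 1, the highest treated library, gave 1.36 (edgeR adjusted p = 0.649). In WT M1 cells the values were 1.49 to 3.97 CPM with vehicle and 5.12 to 11.8 with AP-3-84, a log2 fold change of 1.76 ± 0.673 that was not called (edgeR adjusted p = 0.502). In the 3 KO populations the log2 fold changes lay between -0.31 and -0.08, with standard errors of 0.622 to 0.821.

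Fosl2, which encodes FRA-2, moved little in the peritoneal cells. It was 58.2, 56.2 and 57.4 CPM with vehicle and 60.4, 61.5 and 65.7 with AP-3-84 in ascites macrophages, a log2 fold change of 0.13 ± 0.0896. In thio macrophages the log2 fold change was 0.26 ± 0.0914 (edgeR adjusted p = 0.138). In WT M0 cells Fosl2 stood at 45.8, 44.4 and 48.6 CPM with vehicle and at 106, 80.5 and 75.8 with AP-3-84. The treated libraries were all higher, and the log2 fold change of 0.92 ± 0.225 missed the threshold (edgeR adjusted p = 0.0887), while DESeq2 called it (DESeq2 adjusted p = 0.024). In KO M0 cells vehicle gave 60.3, 64.0 and 64.9 CPM and AP-3-84 gave 46.0, 21.5 and 65.4, so 1 treated library matched the vehicle level and the others were lower (log2 fold change -0.51 ± 0.227, edgeR adjusted p = 0.106).

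Fos itself, the founding member of the family, was not called after AP-3-84 in any of the 8 populations. In ascites macrophages it was 26.2, 33.5 and 26.4 CPM with vehicle and 47.9, 34.4 and 28.2 with AP-3-84, and the groups overlapped (log2 fold change 0.36 ± 0.152, edgeR adjusted p = 0.4). In thio macrophages the values were 24.8, 24.5 and 23.8 against 29.2, 30.5 and 32.0 CPM, which do not overlap (0.33 ± 0.155, edgeR adjusted p = 0.321). Across the 6 bone marrow-derived populations its log2 fold change ran from -0.57 in KO M0 to 0.53 in WT M2.

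Among the JUN-type members, Jun, the partner with the strongest transactivation domain, carried the clearest response. Its CPM in ascites macrophages was 102, 115 and 104 with vehicle and 323, 264 and 274 with AP-3-84. In thio macrophages it was 289, 291 and 319 with vehicle and 480, 511 and 562 with AP-3-84. In both populations all treated libraries were above all vehicle libraries, by log2 1.42 ± 0.0833 in ascites (edgeR adjusted p = 1.43e-08) and 0.79 ± 0.0815 in thio macrophages (edgeR adjusted p = 1.67e-05). The difference of these responses, 0.63 ± 0.115 higher in ascites macrophages, was called (edgeR adjusted p = 0.0389; 20 of 16955 genes, 0.118%, were called in this test, 0.0767% higher). That call was lost when any of the 6 vehicle libraries or thio AP-3-84 replicate 1 or 2 was left out, with edgeR adjusted p 0.0908 to 0.156 and a log2 difference of 0.58 to 0.69. The vehicle levels also differed: Jun was about as high in thio macrophages without the compound as in ascites macrophages with it.

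Jun was not called after AP-3-84 in any bone marrow-derived population, where its log2 fold change ran from -0.19 in KO M1 to 0.40 in KO M0 cells. In KO M0 cells it was 103, 129 and 103 CPM with vehicle and 154, 112 and 176 with AP-3-84 (edgeR adjusted p = 0.0515). Without AP-3-84 replicate 2, the low treated library, the log2 fold change was 0.56 and called (edgeR adjusted p = 0.0153), and without vehicle replicate 2 it was 0.52 and called (edgeR adjusted p = 0.0309). In WT M2 cells vehicle gave 172, 169 and 154 CPM and AP-3-84 gave 214, 200 and 191; these groups did not overlap (0.29 ± 0.147, edgeR adjusted p = 0.441). In WT M0 cells the log2 fold change was -0.17 ± 0.147.

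Junb and Jund, JUN-type proteins that activate less strongly than JUN and can oppose it, were not called after AP-3-84 in the peritoneal cells. Their log2 fold changes were 0.20 ± 0.082 and 0.33 ± 0.125 in ascites and 0.08 ± 0.0828 and 0.28 ± 0.126 in thio macrophages. Without a filter on low counts Jund was called higher in ascites and thio macrophages (edgeR adjusted p = 0.00578 and 0.0349). Fitted with only the groups compared, Jund was called in thio macrophages (edgeR adjusted p = 0.0425). In WT M2 cells Jund was 292, 433 and 423 CPM with vehicle and 182, 224 and 230 with AP-3-84, all lower, and the log2 fold change of -0.85 ± 0.23 missed the threshold (edgeR adjusted p = 0.0579). Without vehicle replicate 1 it was -1.02 and called (edgeR adjusted p = 0.0342), and DESeq2 called it with all libraries (adjusted p = 0.0164). In KO M2 cells Jund was 272, 162 and 168 CPM with vehicle and 296, 283 and 348 with AP-3-84, all higher, with 0.62 ± 0.229 (edgeR adjusted p = 0.249). There too vehicle replicate 1 stood out, and without it the value was 0.90 and called (edgeR adjusted p = 0.0291). The last 351 bases of Junb at its 3′ end lie inside Prdx2 on the other strand, and whether counting used strand is not stated, so Junb values may hold Prdx2 reads. Likewise the 3′ end of Fosl1 lies inside Ccdc85b on the other strand, over 2767 bases, so Fosl1 values may hold Ccdc85b reads. Ccdc85b itself was counted at 0.265 CPM or less in every library.

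Of the bZIP proteins outside the FOS and JUN groups, Atf3, a stress-induced factor that dimerises with JUN and can repress, rose in both peritoneal populations. It was 83.6, 92.9 and 88.2 CPM with vehicle and 174, 150 and 141 with AP-3-84 in ascites macrophages, a log2 fold change of 0.81 ± 0.0724 (edgeR adjusted p = 4.05e-06). In thio macrophages it was 231, 233 and 231 against 327, 326 and 338 CPM, or 0.51 ± 0.0712 (edgeR adjusted p = 0.000317). Neither pair of groups overlapped, and the difference between the responses, 0.30 ± 0.101, was not called (edgeR adjusted p = 0.465). In the bone marrow-derived cells Atf3 had a log2 fold change above 0 in all 6 populations, from 0.11 in KO M1 to 0.59 in KO M2 cells, with none called. In KO M2 cells the groups were 280, 184 and 195 against 290, 330 and 373 CPM, and without vehicle replicate 1 the value was 0.80 and called (edgeR adjusted p = 0.0268).

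Maff, a small MAF protein that lacks a transactivation domain, was the 1 member called lower. In WT M2 cells it was 23.4, 11.2 and 8.87 CPM with vehicle and 7.41, 5.36 and 3.06 with AP-3-84. The treated libraries were all lower, by log2 -1.47 ± 0.353 (edgeR adjusted p = 0.0281; 142 of 11779 genes, 1.21%, called in either direction and 0.976% lower). The call was lost without vehicle replicate 1 (-0.94, edgeR adjusted p = 0.26), the highest library, and without any 1 treated library (edgeR adjusted p 0.0504 to 0.155). With all libraries kept, it was lost when only the groups compared were fitted (edgeR adjusted p = 0.204). Total-count scaling and the replicate number as a block ended it too (edgeR adjusted p = 0.0524 and 0.0557). The vehicle library with the highest Maff also had the highest neutrophil markers. The 5 genes summed to 3718, 543 and 416 CPM in vehicle replicates 1, 2 and 3. With AP-3-84 they summed to 183 to 478 CPM, with Ly6g at 0 counts, and vehicle replicate 3 lay within that range. In KO M2 vehicle the library with the highest neutrophil markers, replicate 3 at 3026 CPM, had the lowest Maff, 3.97 CPM. The part of these markers in the result was not tested. The 6 M2 markers were lower too, at 6035 to 7114 CPM with AP-3-84 against 9180 to 11245. As these are bulk samples, fewer cells of a type and less RNA per cell cannot be told apart. In KO M2 cells Maff was 5.31, 4.05 and 3.97 CPM with vehicle and 6.69, 12.2 and 11.3 with AP-3-84, all higher but not called (1.19 ± 0.36, edgeR adjusted p = 0.177). In ascites macrophages it was 3.83, 4.43 and 5.97 against 8.31, 7.42 and 7.46 CPM, and in WT M1 cells 6.86 to 11.7 against 15.9 to 18.9. Neither pair of groups overlapped, and neither was called (0.70 ± 0.24, edgeR adjusted p = 0.218, and 0.99 ± 0.331, edgeR adjusted p = 0.433). Its log2 fold change was 0.37 ± 0.261 in thio macrophages, 0.49 ± 0.373 in WT M0, 0.44 ± 0.371 in KO M0 and 0.03 ± 0.302 in KO M1 cells, none called.

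After Fosb in ascites and Fosl1 in thio macrophages, Egr1 had the largest called fold change among the members. In ascites macrophages it was 17.4, 20.2 and 25.4 CPM with vehicle and 101, 76.9 and 80.3 with AP-3-84. In thio macrophages it was 9.07, 10.9 and 13.7 against 48.6, 46.1 and 54.8 CPM. The treated libraries were far above the vehicle ones in both, by log2 2.03 ± 0.162 (edgeR adjusted p = 5.16e-06) and 2.15 ± 0.169 (edgeR adjusted p = 5.28e-06). The responses differed by -0.11 ± 0.228, which was not called (edgeR adjusted p = 0.926).

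In WT bone marrow-derived cells Egr1 was low without the compound, at 7 to 20 counts per library in M0 and 4 to 15 in M1. It was 1.57, 4.06 and 5.11 CPM in WT M0 vehicle and 11.5, 14.4 and 6.06 with AP-3-84, and 4.47, 1.85 and 1.01 against 10.2, 10.6 and 8.27 in WT M1. All treated libraries were above the vehicle ones in both states, with log2 fold changes of 1.58 ± 0.508 (edgeR adjusted p = 0.266) and 2.02 ± 0.554 (edgeR adjusted p = 0.291), neither called. Without vehicle replicate 1 the WT M1 value was 2.73 (edgeR adjusted p = 0.497). Fitted with only the groups compared, it was 2.02 and called (edgeR adjusted p = 0.0362). With no filter on low counts Egr1 was called in WT M0 and WT M1 (edgeR adjusted p = 0.00243 and 0.000135). That setting called 311 and 230 genes over the whole table, against 17 and 2 with the filter. In KO M0 cells Egr1 was 35.6, 30.5 and 21.9 CPM with vehicle and 16.2, 8.88 and 31.0 with AP-3-84, which overlap (-0.65 ± 0.428, edgeR adjusted p = 0.29). In KO M1 cells the vehicle values alone ran from 9.34 to 30.1 CPM.

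**Figure D2:**
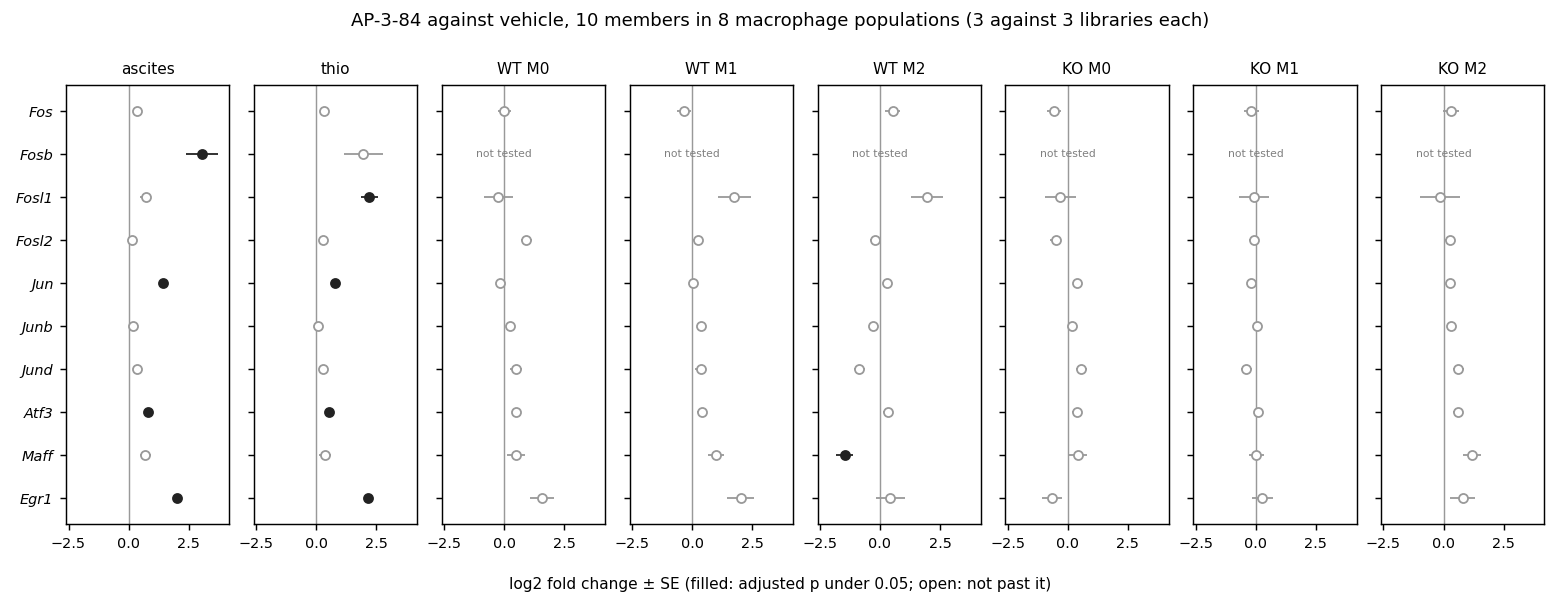
Log2 fold change of AP-3-84 against vehicle with its standard error (x axis) for each member (y axis) in the 8 populations, 3 against 3 libraries each; filled points passed an adjusted p of 0.05 and open points did not. The 8 filled points above 0 are all in ascites and thio macrophages, and the filled point below 0 is Maff in WT M2.

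For the 5 bone marrow-derived populations with no member called by edgeR, the counts at an unadjusted p under 0.05 were 4 of 9 in WT M0, 4 in WT M1, 3 in KO M0, 0 in KO M1 and 4 in KO M2. The same share over all genes tested was 9.4%, 7.28%, 34%, 1.75% and 12.3%. DESeq2 called Fosl2 in WT M0, Jun in KO M0 and no member in the other 3. Genes called over the whole table by edgeR were 0.144% in WT M0, 0.017% in WT M1, 20.7% in KO M0, 0% in KO M1 and 0.0509% in KO M2. KO M0 was thus the population with the most genes called, and none of the 9 members tested was among them. Single libraries mattered there: beside the Jun calls given above, without KO M0 AP-3-84 replicate 3 Fos, Fosl2 and Egr1 were called lower, Fosl2 at -0.90 (edgeR adjusted p = 0.00275). In that replicate the 3 genes stood close to vehicle, at 34.9, 65.4 and 31.0 CPM. The 6 M2 markers summed to 311 CPM in it, 142 and 83.9 in the other treated libraries and 372 to 478 with vehicle, and the part of such differences between the treated libraries in the result was not tested.

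Whether p53 status changed the response was tested as the KO minus the WT response. In M0 cells 2 of 9 members were called, both lower, beside 17% of all genes, 6.99% lower. Fosl2 differed by -1.43 ± 0.319 (edgeR adjusted p = 0.00269), from 0.92 in WT and -0.51 in KO, and this call was kept in all 19 alternatives. Egr1 differed by -2.23 ± 0.664 (edgeR adjusted p = 0.0195), from 1.58 in WT and -0.65 in KO; it was lost without WT M0 vehicle replicate 1, WT M0 AP-3-84 replicate 2 or KO M0 AP-3-84 replicate 2 (-1.95 to -1.86, edgeR adjusted p 0.063 to 0.0728). Jun missed the threshold (0.57 ± 0.209, edgeR adjusted p = 0.0575) and was called without WT M0 vehicle replicate 2, KO M0 vehicle replicate 2 or KO M0 AP-3-84 replicate 2 (0.64 to 0.73, edgeR adjusted p 0.0219 to 0.0478). In M2 cells 2 of 9 were called, both higher, beside 1.77% of all genes, 1.08% higher. Maff differed by 2.65 ± 0.504 (edgeR adjusted p = 0.00492), and the call was kept whichever library was left out. Jund differed by 1.47 ± 0.324 (edgeR adjusted p = 0.0161) and was lost without WT M2 AP-3-84 replicate 1 or KO M2 vehicle replicate 2 or 3 (1.34 to 1.37, edgeR adjusted p 0.0678 to 0.0727). In M1 cells no member was called by edgeR or DESeq2, and 0.00849% of all genes were called by edgeR. At an unadjusted p under 0.05 there were 3 of 9 members and 7.05% of all genes.

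Averaged over the genotypes, the response in M1 minus that in M0 cells, and in M2 minus M0 cells, gave no member called by edgeR or DESeq2, beside 0.492% and 1.87% of all genes. At an unadjusted p under 0.05 there was 1 member (Jund, -0.55 ± 0.231) in the M1 contrast and 2 (Jund, -0.64 ± 0.23, and Fos, 0.70 ± 0.306) in the M2 contrast, of 9 in each, beside 11.3% and 15.6% of all genes. Both contrasts use the same M0 libraries.

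Polarization was compared in the vehicle libraries of the bone marrow-derived cells, and 20 of 36 member tests were called, 12 higher and 8 lower. Fos was the member called in all 4 comparisons, and it fell in each. It was 47.6, 80.8 and 77.7 CPM in WT M0, 32.2, 31.0 and 26.4 in WT M1 and 14.7, 15.1 and 8.23 in WT M2. In KO cells it was 36.7, 40.0 and 36.5 in M0, 10.7, 21.5 and 12.1 in M1 and 9.02, 7.43 and 7.44 in M2. No polarized library reached the M0 range of its genotype. The log2 fold changes were -1.20 ± 0.283 in WT M1 and -2.43 ± 0.306 in WT M2 (edgeR adjusted p = 0.00366 and 4.33e-07), and -1.35 ± 0.299 and -2.24 ± 0.317 in KO M1 and M2 (edgeR adjusted p = 0.000471 and 1.79e-06). The M1 and the M2 comparison of a genotype share their M0 libraries.

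In WT cells 4 of 9 members were called after LPS and IFN-γ, 1 higher and 3 lower, beside 15.5% of all genes, 8.01% higher and 7.49% lower. Besides Fos these were Fosl1 (-1.94 ± 0.662, edgeR adjusted p = 0.0434), Jun (-0.42 ± 0.148, edgeR adjusted p = 0.0491) and Maff (1.05 ± 0.363, edgeR adjusted p = 0.0462). Each of these 3 calls depended on single libraries. Fosl1 was lost without WT M0 vehicle replicate 1 (-1.06, edgeR adjusted p = 0.353), WT M0 vehicle replicate 2 or any WT M1 vehicle library (edgeR adjusted p 0.0509 to 0.151). Jun was lost without WT M0 vehicle replicate 1 or 3 or any WT M1 vehicle library (edgeR adjusted p 0.0615 to 0.228), and Maff without replicate 1 or 3 of WT M0 or replicate 2 or 3 of WT M1 vehicle (edgeR adjusted p 0.0678 to 0.247). The other 5 members lay between -0.57 (Egr1) and 0.24 (Fosl2). With total-count scaling 0 members were higher and 4 lower in this comparison, and the median of all genes shifted by -0.30.

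In KO cells 4 of 9 were called after LPS and IFN-γ, 3 higher and 1 lower, beside 44.5% of all genes, 22.8% higher and 21.8% lower. Maff was 4.72, 4.62 and 5.14 CPM in KO M0 and 32.4, 22.8 and 23.2 in KO M1, far apart (2.43 ± 0.348, edgeR adjusted p = 1.62e-06). Atf3 rose from 136, 119 and 104 CPM to 308, 206 and 185 (0.96 ± 0.2, edgeR adjusted p = 0.000237). Junb rose by 0.72 ± 0.145 (edgeR adjusted p = 0.000175), from 122 ± 11.8 to 200 ± 10.8 CPM (SD, n = 3), while its neighbour Prdx2 rose by 0.57. These 3 calls were kept whichever library was left out, and the 5 members not called lay between -0.72 (Egr1) and 0.42 (Jund). The 7 macrophage markers summed to 32252 to 38950 CPM in KO M0 and 16073 to 25150 in KO M1 vehicle. KO cells also carried more signal of fibroblast markers, 161 to 287 CPM over 4 genes in KO M0 and 89.6 to 122 in KO M1 vehicle against 22.5 to 26.2 in WT M0, and the part of these markers in the result was not tested.

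After IL-4 and IL-13, 6 of 9 members were called in WT cells, 5 of them higher, beside 23.4% of all genes, 12.7% higher and 10.7% lower. With total-count scaling 4 were higher and 2 lower, Junb being lost and Fosl1 gained, and the median of all genes shifted by -0.21. Jund was 101, 131 and 129 CPM in WT M0 and 292, 433 and 423 in WT M2 (1.67 ± 0.235, edgeR adjusted p = 3.14e-06). Atf3 was 75.6, 66.2 and 70.0 against 223, 256 and 175 CPM (1.63 ± 0.204, edgeR adjusted p = 4.09e-07). Both groups were well apart for these genes. Fosl2 rose from 46.3 ± 2.1 to 117 ± 25.2 CPM (SD, n = 3; 1.34 ± 0.226, edgeR adjusted p = 4.22e-05) and Junb by 0.57 ± 0.144 (edgeR adjusted p = 0.00373). Maff was 4.49, 5.50 and 2.56 against 23.4, 11.2 and 8.87 CPM (1.78 ± 0.354, edgeR adjusted p = 0.000354), the highest value again in the library with the high neutrophil markers. Fosl1 was not called (-1.69 ± 0.654, edgeR adjusted p = 0.0593), but it was without WT M0 vehicle replicate 3 (-2.15, edgeR adjusted p = 0.0159) or WT M2 vehicle replicate 1 (-3.14, edgeR adjusted p = 0.00535). Without WT M0 vehicle replicate 1 it was -0.80 (edgeR adjusted p = 0.461). Jun was not called either (0.38 ± 0.147, edgeR adjusted p = 0.0591); without WT M0 vehicle replicate 1 it was 0.50 and called (edgeR adjusted p = 0.0307).

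In KO cells 6 of 9 were called after IL-4 and IL-13, 3 higher and 3 lower, beside 38% of all genes, 20.1% higher and 18% lower. Egr1 was 35.6, 30.5 and 21.9 CPM in KO M0 and 3.71, 2.93 and 5.70 in KO M2, a fall of -2.83 ± 0.488 (edgeR adjusted p = 3.55e-05). Jun was 103, 129 and 103 against 196, 176 and 170 CPM (0.69 ± 0.148, edgeR adjusted p = 0.000412) and Atf3 136, 119 and 104 against 280, 184 and 195 (0.88 ± 0.199, edgeR adjusted p = 0.000822). None of these groups overlap. Jund rose by 0.67 ± 0.231 (edgeR adjusted p = 0.0217), which was lost without KO M0 vehicle replicate 1 or 2 or KO M2 vehicle replicate 1 (0.40 to 0.61, edgeR adjusted p 0.0802 to 0.195). Fosl1 fell by -1.76 ± 0.705 (edgeR adjusted p = 0.0487), which was lost without KO M0 vehicle replicate 2 or 3 or any KO M2 vehicle library (edgeR adjusted p 0.0775 to 0.159). From KO M0 to KO M2 vehicle the macrophage markers went from 32252 to 38950 CPM down to 5894 to 18413, and the fibroblast markers from 161 to 287 down to 47.5 to 78.4, neither with overlap, and their part in the result was not tested. Maff and Fosl2, both higher in WT M2 cells, had values of -0.12 ± 0.385 and 0.16 ± 0.223 in KO cells; the difference between genotypes in the effect of polarization was not tested.

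Between genotypes, 13 of 27 member tests were called in the vehicle libraries. In M0 cells 4 of 9 were called, 2 in each direction, beside 33.2% of all genes, 16.4% higher and 16.8% lower. Egr1 was 1.57, 4.06 and 5.11 CPM in WT M0 and 35.6, 30.5 and 21.9 in KO M0, with no overlap and a log2 fold change of 3.04 ± 0.495 (edgeR adjusted p = 3.01e-05). Atf3 was 75.6, 66.2 and 70.0 against 136, 119 and 104 CPM (0.76 ± 0.202, edgeR adjusted p = 0.00422). These 2 calls were kept in all 13 alternatives. Fos was lower in KO cells by -0.86 ± 0.28 (edgeR adjusted p = 0.0171), a call lost without WT M0 vehicle replicate 2 or 3 or KO M0 vehicle replicate 3 (-0.85 to -0.74, edgeR adjusted p 0.0554 to 0.0765). Junb was lower by -0.41 ± 0.145 (edgeR adjusted p = 0.0281), lost without replicate 2 or 3 of WT M0 or replicate 1 or 3 of KO M0 vehicle (edgeR adjusted p 0.0536 to 0.123), while Prdx2 differed by -0.57 (edgeR adjusted p = 0.00117). The fibroblast marker signal given above differs between the same groups, with no overlap. Neutrophil markers were also apart, at 507 to 632 CPM in KO M0 against 237 to 448 in WT M0 vehicle. So were M1 markers (88.3 to 108 against 28.0 to 61.9 CPM) and M2 markers (372 to 478 against 246 to 318 CPM), while macrophage markers overlapped. The part of these markers in the result was not tested.

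In M1 cells 6 of 9 were called between genotypes, 5 of them higher in KO, beside 11.6% of all genes, 5.93% higher and 5.71% lower. Egr1 was 4.47, 1.85 and 1.01 CPM in WT M1 and 9.34, 30.1 and 14.1 in KO M1 (2.89 ± 0.533, edgeR adjusted p = 0.00072), and without WT M1 vehicle replicate 1 the value was 3.62. Atf3 was 80.5, 98.8 and 66.2 against 308, 206 and 185 CPM (1.51 ± 0.203, edgeR adjusted p = 1.47e-05), and Maff 6.86, 11.7 and 7.55 against 32.4, 22.8 and 23.2 (1.58 ± 0.326, edgeR adjusted p = 0.00195). KO libraries were above all WT libraries for the 3 genes. Jun (0.52 ± 0.148, edgeR adjusted p = 0.0196), Jund (0.79 ± 0.233, edgeR adjusted p = 0.0253) and Fos (-1.01 ± 0.3, edgeR adjusted p = 0.025) were called but depended on single libraries. Jun was lost without WT M1 vehicle replicate 2 or 3 or KO M1 vehicle replicate 1 (edgeR adjusted p 0.0536 to 0.091). Jund was lost without WT M1 vehicle replicate 1 or 2 or KO M1 vehicle replicate 1, the last of these giving 0.34 (edgeR adjusted p = 0.376). Fos was lost without replicate 1 or 2 of WT M1 or replicate 1 or 3 of KO M1 vehicle (edgeR adjusted p 0.0735 to 0.127). Total-count scaling shifted the median of all genes by 0.27 here and gave 6 members higher and 0 lower. KO M1 vehicle also had more neutrophil marker signal, 943 to 2335 CPM against 427 to 559 in WT M1. It had less macrophage marker signal, 16073 to 25150 CPM against 43565 to 46541. The 5 M1 markers summed to 156 to 165 CPM in KO M1 vehicle and to 62.6 to 75.8 in WT M1 vehicle, without overlap. The part of these marker differences in the result was not tested.

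In M2 cells 3 of 9 were called between genotypes, all lower in KO, beside 3.56% of all genes, 1.21% higher and 2.34% lower. Jund was 292, 433 and 423 CPM in WT M2 and 272, 162 and 168 in KO M2 (-0.93 ± 0.23, edgeR adjusted p = 0.0185). Maff was 23.4, 11.2 and 8.87 against 5.31, 4.05 and 3.97 CPM (-1.71 ± 0.354, edgeR adjusted p = 0.00535). Junb was 267, 248 and 209 against 149, 161 and 128 CPM (-0.72 ± 0.145, edgeR adjusted p = 0.00408). No KO library reached the WT range for these genes. The macrophage markers summed to 24908 to 30922 CPM in WT M2 and 5894 to 18413 in KO M2 vehicle, without overlap, and neutrophil markers set 1 library apart in each group (3718 CPM in WT replicate 1 and 3026 in KO replicate 3); their part in the result was not tested. Jund was lost without replicate 2 or 3 of either vehicle group (-0.87 to -0.80, edgeR adjusted p 0.0565 to 0.134), Maff without WT M2 vehicle replicate 1 (-1.19, edgeR adjusted p = 0.0691) and Junb without KO M2 vehicle replicate 3 (-0.63, edgeR adjusted p = 0.0532). Fosl2 missed the threshold (-0.74 ± 0.222, edgeR adjusted p = 0.0553) and was called without WT M2 vehicle replicate 3 (-0.90, edgeR adjusted p = 0.0298) or KO M2 vehicle replicate 1 (-0.83, edgeR adjusted p = 0.0385).

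Between the peritoneal populations without the compound, 8 of 10 members were called, 6 higher and 2 lower in ascites than in thio macrophages, beside 33.7% of all genes, 20.3% higher and 13.4% lower. Fosl1 was 9.35, 8.82 and 9.87 CPM in ascites and 0.766, 0.304 and 0.163 in thio macrophages, a log2 difference of 4.52 ± 0.318 (edgeR adjusted p = 3.7e-09), and 5.30 without thio vehicle replicate 1. Ascites samples also carried markers of epithelial, mesothelial or ID8 tumour cells: the 7 genes summed to 210 to 247 CPM there and to 2.55 to 4.66 CPM in thio vehicle, where Epcam and Msln were at 0 counts, and their part in the result was not tested.

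Jun and Atf3 were the 2 members lower in ascites macrophages, Jun at 102, 115 and 104 against 289, 291 and 319 CPM (-1.49 ± 0.0834, edgeR adjusted p = 1.84e-10). Atf3 was 83.6, 92.9 and 88.2 against 231, 233 and 231 CPM (-1.39 ± 0.0729, edgeR adjusted p = 7.45e-11). Both were thus well below thio macrophages before treatment. Fosl2 (0.59 ± 0.0908, edgeR adjusted p = 5.59e-05) and Egr1 (0.90 ± 0.169, edgeR adjusted p = 0.000675) were higher in ascites macrophages, as was Junb (0.49 ± 0.0825, edgeR adjusted p = 0.00013) together with Prdx2 (0.65). Jund (0.46 ± 0.126, edgeR adjusted p = 0.0119) was lost without ascites vehicle replicate 3 or thio vehicle replicate 1 (edgeR adjusted p 0.0544 to 0.0551), and Maff (0.92 ± 0.254, edgeR adjusted p = 0.00886) without ascites vehicle replicate 3 or thio vehicle replicate 3 (edgeR adjusted p 0.0555 to 0.062). Fos (0.24 ± 0.154) and Fosb (1.24 ± 0.825) were not called.

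**Figure D3:**
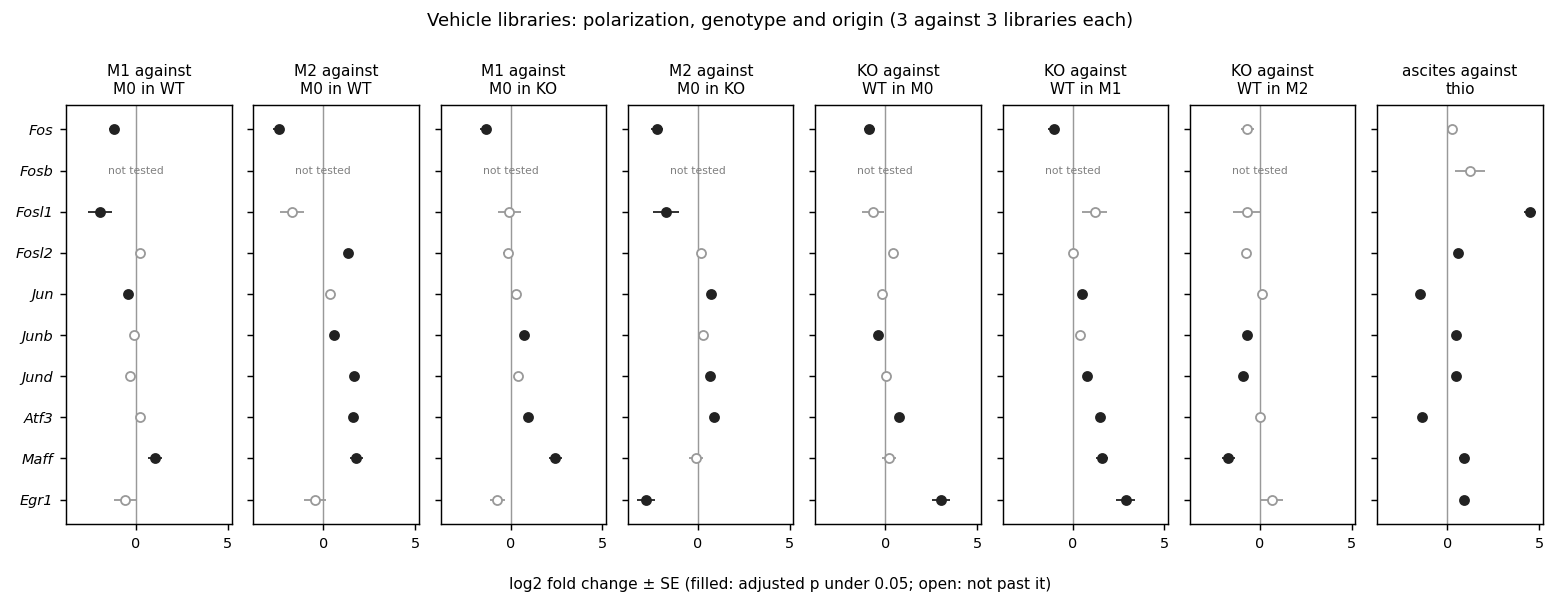
Log2 fold change with its standard error (x axis) of each member (y axis) in vehicle libraries, for M1 and M2 against M0, KO against WT and ascites against thio macrophages, 3 against 3 libraries each; filled points passed an adjusted p of 0.05. Fos is filled and below 0 in all 4 polarization panels, and Egr1 has its highest values, 3.04 and 2.89, in KO against WT in M0 and M1.

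Ordered by mean level in the bone marrow-derived vehicle groups, Fos ran from WT M0 (68.7 ± 18.4 CPM; SD, n = 3) through KO M0 (37.7 ± 1.97) and WT M1 (29.9 ± 3.04) to KO M1, WT M2 and KO M2 (14.8 ± 5.89, 12.7 ± 3.86 and 7.97 ± 0.915), of which the last 3 each overlapped the next. Egr1 ran from KO M0 (29.3 ± 6.93 CPM) and KO M1 (17.8 ± 10.9), which overlapped, to KO M2, WT M0, WT M2 and WT M1 (4.12 ± 1.43 to 2.44 ± 1.81), each overlapping the next. Atf3 stood highest in KO M1, KO M2 and WT M2 (233 ± 65.5, 220 ± 52.5 and 218 ± 40.7 CPM), which overlapped, then in KO M0 (120 ± 16.2), and lowest in WT M1 and WT M0 (81.8 ± 16.4 and 70.6 ± 4.73), which overlapped. Jund was highest in WT M2 (383 ± 78.7 CPM), with no overlap with KO M2 (201 ± 61.8), and the 5 groups below WT M2 each overlapped the next. Maff was highest in KO M1 (26.1 ± 5.44 CPM) and next in WT M2 (14.5 ± 7.8), which overlapped.

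Genes whose levels ran most like a member's were looked for among 7722 genes, by the smaller of 2 Pearson correlations of log2 CPM, over 12 peritoneal and 36 bone marrow-derived libraries, which span the same groups and treatments. Jun ran most like Pdlim1 (r = 0.83 and 0.84), followed by Egr2 (0.86 and 0.83), which encodes another zinc finger factor of the EGR family. Atf3 ran most like Rragd (0.88 and 0.81), Fosl2 like Mob3b (0.89 and 0.80), Junb like Slc7a11 (0.76 and 0.80) and Maff like Traf1 (0.85 and 0.76). Fos ran most like Abcc1 (0.74 and 0.76) and Fosl1 like Pdlim7 (0.91 and 0.73). The 3 genes most like Egr1 were Gm26917 (0.87 and 0.76), Rn7sk (0.92 and 0.75) and Ccnt1 (0.86 and 0.72), the last of which encodes a cyclin of the elongation factor P-TEFb. Between members, Jun and Atf3 had r = 0.96 over the peritoneal and 0.76 over the bone marrow-derived libraries, while Fos and Atf3 had r = -0.027 and -0.75.

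Other genes of the pathway were counted in lists, which were chosen with earlier results of these data known. Their counts beside the shares of all genes are thus not a test of a list. Of 28 other immediate early genes, 27 were tested, and AP-3-84 raised 10 in ascites and 9 in thio macrophages, beside 1.69% and 2.51% of all genes; the list's median log2 fold change was 0.48 and 0.35, against -0.0048 and 0.025 over all genes. Ppp1r15a, a phosphatase subunit of the stress response, rose by 1.49 ± 0.113 in ascites and 1.08 ± 0.109 in thio macrophages (edgeR adjusted p = 5.24e-07 and 1.4e-05). Gadd45b, a stress gene upstream of p38 and JNK, rose by 1.19 ± 0.0899 in ascites macrophages (edgeR adjusted p = 4.75e-07), from 11.1 ± 0.557 to 25.4 ± 2.01 CPM (SD, n = 3), and by 1.17 ± 0.237 in KO M0 cells (edgeR adjusted p = 0.000652). Klf6, a zinc finger factor, rose in ascites (0.42 ± 0.0832), thio (0.43 ± 0.0834) and KO M0 cells (0.63 ± 0.171; edgeR adjusted p = 0.00904, 0.00571 and 0.00815), the first of these lost without replicate 1 of either treatment. In KO M0 cells 5 of the 27 rose and 1 fell, beside 20.7% of all genes called. The 1 call in WT M1 cells was Gadd45b again, at 11.2 ± 1.88 CPM with vehicle and 31.6 ± 11.6 with AP-3-84 (SD, n = 3; edgeR adjusted p = 0.00258), and it ended when replicate 1 of either treatment was left out.

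Of 24 other bZIP factors that pair with or oppose AP-1, 1 rose in ascites macrophages, 5 rose and 1 fell in thio macrophages, and 9 rose and 3 fell in KO M0 cells, beside 1.79%, 4.32% and 20.7% of all genes called. Atf4, the effector of the integrated stress response, was called in all 3, at 0.44 ± 0.0847, 0.68 ± 0.0851 and 1.04 ± 0.188 (edgeR adjusted p = 0.00782, 0.000115 and 0.000202). Maf, a large MAF factor of mature macrophages, fell in thio macrophages by -0.69 ± 0.0958 (edgeR adjusted p = 0.000489). Of 20 upstream kinases and ternary complex factors, which carry the signal to Fos, Egr1 and Jun, none was called by edgeR in either peritoneal population, where 1 (ascites) and 5 (thio) had an unadjusted p under 0.05, beside 10.6% and 15.7% of all genes. Mapkapk2 fell in WT M2 cells (edgeR adjusted p = 0.0114), and leaving out 1 library, vehicle replicate 1 or treated replicate 1 or 2, ended that call. Elk3 fell in KO M0 cells by -1.10 ± 0.267 (edgeR adjusted p = 0.00344), as did Map3k5, whose call ended without vehicle replicate 3 or treated replicate 2.

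Of 11 corepressors and turnover genes in the table, 3 rose in thio macrophages, 1 in WT M2 and 2 in KO M0 cells, beside 4.32%, 1.21% and 20.7% of all genes called. Dusp16, a phosphatase that acts on JNK, rose by 0.80 ± 0.155 in thio macrophages and 1.61 ± 0.284 in KO M0 cells (edgeR adjusted p = 0.00559 and 0.000144). Of 17 genes with textbook AP-1 sites tested in the peritoneal fit, 1 rose in ascites and 5 in thio macrophages, beside 1.69% and 2.51% of all genes; Hmox1, which encodes heme oxygenase 1, was in both counts (1.63 ± 0.129 and 1.49 ± 0.128, edgeR adjusted p = 4.16e-06 and 7.98e-06). Of 18 tested in the bone marrow-derived fit, 3 fell in WT M2 and 3 rose in KO M0 cells, beside 1.21% and 20.7% of all genes called, and Tnf was in both counts, at -2.06 ± 0.401 in WT M2 and 3.24 ± 0.434 in KO M0 (edgeR adjusted p = 0.00668 and 9.84e-06). The WT M2 call of Tnf ended when vehicle replicate 1 or treated replicate 1 or 2 was left out.

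In the vehicle libraries the other immediate early genes moved both ways. Of the 27 tested, 3 were higher and 6 lower in WT M1 than in WT M0 cells, 11 and 4 in WT M2, 12 and 3 in KO M1 and 13 and 4 in KO M2. Of all genes tested, 15.5%, 23.4%, 44.5% and 38% were called in these comparisons. Ier3, an early gene that protects from apoptosis, rose in all 4 comparisons (0.83 ± 0.164, 1.37 ± 0.165, 1.98 ± 0.168 and 0.98 ± 0.165; edgeR adjusted p = 0.000657, 2.12e-07, 2.5e-10 and 2.11e-05). Of the 24 other bZIP factors, 3 were higher and 5 lower in WT M1, 6 and 4 in WT M2, 8 and 8 in KO M1 and 8 and 7 in KO M2, beside the same shares of all genes. Ddit3, which encodes CHOP, rose in all 4 (1.46 ± 0.377, 1.72 ± 0.377, 3.42 ± 0.373 and 1.57 ± 0.358; edgeR adjusted p = 0.00869, 0.00135, 7.83e-08 and 0.00104). Batf, which pairs with JUN proteins, was called higher in 3 of the 4, by 2.36 ± 0.343 in WT M1, 4.30 ± 0.391 in KO M1 and 2.44 ± 0.402 in KO M2 (edgeR adjusted p = 1.42e-05, 1.3e-09 and 1.76e-05). The calls given here for Ier3, Ddit3 and Batf were kept in every alternative.

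Between KO and WT, 4 of the other immediate early genes were higher and 7 lower in M0 cells, 10 and 3 in M1 cells, and 0 and 3 in M2 cells, beside 33.2%, 11.6% and 3.56% of all genes called. Gadd45b, beside Atf3 and Egr1, was higher in KO M1 cells by 3.27 ± 0.238 (edgeR adjusted p = 4.38e-11), and Plk2 by 3.64 ± 0.348 (edgeR adjusted p = 3.52e-08). Nr4a1, an orphan nuclear receptor, was called higher in KO M0 (2.38 ± 0.748, edgeR adjusted p = 0.0138) and KO M1 cells (3.11 ± 1.04, edgeR adjusted p = 0.0472). Its M0 call ended without vehicle replicate 1 of either genotype, and its M1 call without replicate 1 or 2 of WT or replicate 2 or 3 of KO vehicle. Atf5, a bZIP factor of the ATF4 group, was higher in KO M0 cells (edgeR adjusted p = 0.000822) and, by 1.87 ± 0.266, in KO M1 cells (edgeR adjusted p = 3.97e-05). Between the peritoneal populations 11 of the 27 were higher and 7 lower in ascites macrophages, beside 33.7% of all genes called. Gadd45b was lower there by -2.46 ± 0.0902 (edgeR adjusted p = 6.78e-13), the direction of Jun and Atf3, while Dusp5, a nuclear ERK phosphatase, was higher by 2.93 ± 0.216 (edgeR adjusted p = 7.01e-09).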

How the data were processed

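RNA was read from its 3′ end (QuantSeq FWD, single reads of 75 bases, per the labels' protocols). The deposited table holds whole-number counts per gene. The authors' steps are known only as tool names, RSEM, Bowtie2 and DESeq2, per the submitters' processing notes; their roles are not recorded there, and the build, the annotation, strand use and any molecular identifiers are likewise not stated. Counts were fitted with edgeR 4.0.16 (R 4.3.3; TMM, filterByExpr, robust quasi-likelihood test), apart for 12 peritoneal libraries (16955 genes tested) and 36 bone marrow-derived ones (11779 genes). Benjamini-Hochberg adjustment ran over all genes of each of 22 comparisons. DESeq2 1.42.0 (Wald test) was an alternative, beside other scalings, filters, sets of libraries and a replicate term. The members and lists were chosen with earlier results of these data known. Every member that passed the filter was tested in each comparison, 10 in peritoneal and 9 in bone marrow-derived cells, and the text gives the values of those the results turn on. Of each list, the rule takes up to 3 genes per direction, those called in the most comparisons with ties by the lowest p, and the text prints some of these. The fit was tested on simulated counts, with changes set in genes of average log2 CPM of 3 or more. For AP-3-84 against vehicle, changes of log2 size 1 were called for 93% of such genes in ascites and 58% in WT M0. At log2 size 2 the shares were 97% and 94%. The simulation set 100 changes of each size, while the WT M0 comparison of the data called 17 genes. With fewer changed genes the Benjamini-Hochberg adjustment is stricter, so these shares may be too high for the data. They do not cover members below an average log2 CPM of 3. A member not called in bone marrow-derived cells may thus still have changed. Gene positions were taken on GRCm38 for overlaps only, and promoter sequences from RefSeq.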

Additional observations from a re-analysis of the deposited data

Results flagged for a closer look

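In 5 cases the response of a member to AP-3-84 differed between populations by a test of the difference itself in edgeR. Jun responded more in ascites than in thio macrophages, by 0.63 on the log2 scale, from vehicle levels of 107 ± 6.67 and 299 ± 16.7 CPM (SD, n = 3). Beside the single libraries named above, this Jun call was lost with median-ratio size factors (edgeR adjusted p = 0.061). It was also lost in 1 fit of all 48 libraries (edgeR adjusted p = 0.891) and with the replicate block (edgeR adjusted p = 0.322). In M0 cells the KO minus the WT response was -1.43 for Fosl2 and -2.23 for Egr1; Egr1 vehicle levels were 29.3 ± 6.93 CPM in KO and 3.58 ± 1.82 in WT, and those of Fosl2 were 63.1 ± 2.47 and 46.3 ± 2.1. In M2 cells it was 1.47 for Jund and 2.65 for Maff, whose vehicle levels were 201 ± 61.8 and 4.44 ± 0.749 CPM in KO and 383 ± 78.7 and 14.5 ± 7.8 in WT. The part of the vehicle levels in these differences was not tested.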

How the results depend on the processing

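Of the 55 member calls over all comparisons, 30 were kept in every alternative, 25 were lost in at least 1 and 0 reversed; 20 of the 25 were lost without 1 library, and each is given with its value above. Calls of members over the 8 AP-3-84 comparisons, 9 in all, became 20 without a filter on low counts and ranged from 8 to 13 without 1 library. The 5 called differences of responses became 3 when only the groups compared were fitted and 3 with the replicate number as a block, and ranged from 4 to 6 without 1 library. The 20 polarization calls ranged from 16 to 21, the 13 genotype calls from 10 to 14 and the 8 calls of ascites against thio macrophages from 6 to 8. Member calls lost and gained were 1 and 1 with median-ratio size factors, 4 and 3 with total-count scaling, 4 and 15 without a filter on low counts, 0 and 9 with DESeq2, 9 and 5 in fits of only the groups compared and 6 and 9 in 1 fit of all 48 libraries. Among the 6 calls lost in that last fit were Fosl1 (edgeR adjusted p = 0.206) and Atf3 (edgeR adjusted p = 0.324) in thio macrophages. Fosb in ascites macrophages (edgeR adjusted p = 0.0513) and the difference of Jun responses (edgeR adjusted p = 0.891) were lost there too. Fitted alone, the KO and WT M2 vehicle groups lost Junb, Jund and Maff (edgeR adjusted p 0.206 to 0.227), and the difference of Maff responses in M2 cells was lost too (edgeR adjusted p = 0.0749).

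Replicate numbers were not shown to pair the samples: same-numbered libraries had r from -0.33 to 0.38, 4 of 24 pairs were over 0.1 and 6 of 24 correlated best with their own number. With the replicate block, 9 member calls were lost and 1 was gained, leaving 7 for AP-3-84, 19 for polarization, 10 for genotype and 8 for ascites against thio.

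Counts over all genes moved more. Over alternatives with all libraries, AP-3-84 calls ranged from 112 to 519 in ascites (303 as reported), 52 to 1075 in thio (733), 8 to 311 in WT M0 (17), 2 to 230 in WT M1 (2), 59 to 496 in WT M2 (142), 704 to 3103 in KO M0 (2440), 0 to 29 in KO M1 (0) and 0 to 577 in KO M2 (6). Genes called between M2 vehicle groups ranged from 7 to 959 (419), between ascites and thio from 3252 to 6180 (5716), and for the differences of responses from 2 to 155 in ascites minus thio (20), 0 to 162 in KO minus WT M1 (1), 35 to 757 in KO minus WT M2 (208), 47 to 528 in M1 minus M0 (58) and 64 to 765 in M2 minus M0 (220). Total-count scaling moved the share of higher calls from 94.4% to 81.8% in ascites, 19.0% to 33.1% in WT M2, 61.1% to 36.1% in KO minus WT M2, 51.7% to 16.9% and 54.2% to 30.7% in WT M1 and M2 against M0, and 50.9% to 89.0% and 34.1% to 76.6% in KO against WT M1 and M2. Low counts limit Fosb, Fosl1 in thio macrophages and bone marrow-derived cells, and Egr1 in WT bone marrow-derived cells. Egr1 held 7 to 20 counts per library in WT M0 vehicle, 4 to 15 in WT M1 and 4 to 13 in WT M2. Its fold changes against these groups thus rest on few counts. Maff held 10 to 23 counts in WT M0 vehicle.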
